A study of Rattus norvegicus with 4 samples.

Results

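Calcium ions carry signals inside hippocampal neurons, and a set of channels, pumps, exchangers and binding proteins sets where and for how long calcium is raised. The 38 genes described here were chosen by name as members of this machinery. They encode ryanodine and IP3 receptors, the pumps SERCA and PMCA, sodium-calcium exchangers, store-operated entry proteins, calmodulin, calbindin, neuronal calcium sensors, enzymes of IP3 turnover, mitochondrial channels and the calcium-binding chaperones of the endoplasmic reticulum (ER). The members were all probe sets of the rat genome array with a single gene symbol from this set. There were 68 such probe sets for 37 of the 38 genes, of 20826 probe sets for 14217 genes in all, and Calm3 had none. A probe set is a group of short oligonucleotides that together measure a transcript, and its value is a signal intensity.

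Hippocampal RNA was measured in male Wistar rats on 4 arrays, 2 from stressed rats and 2 from nonstressed controls. Stressed rats went through 4 weeks of chronic unpredictable mild stress, a changing series of mild stressors used as a model of depression, from an age of 15 months. Both groups were 16 months old at dissection and the controls were kept without the stressors. Each array carried RNA pooled from 3 rats, and the arrays of a group are described as biological replicates. The spread between arrays is therefore that between pools, and differences between single rats are not seen. The comparison asked which calcium handling transcripts differ after stress. In RNA of whole tissue, fewer cells of a type and less RNA per cell cannot be told apart.

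In a resting neuron SERCA pumps load calcium into the ER, while PMCA pumps and sodium-calcium exchangers push it out of the cell. Calcium leaves the ER through ryanodine receptors, which open when calcium rises, and through IP3 receptors, which open when phospholipase C has made the messenger IP3. STIM proteins sense an emptied ER and open ORAI channels of the plasma membrane. Calmodulin and the neuronal calcium sensors bind calcium through EF-hand loops and pass the signal on to target proteins, and mitochondria take up calcium through VDAC channels of the outer membrane and the uniporter Mcu of the inner membrane.

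The array signals were made by the authors and scaled on each array to a common trimmed mean, and the 4 arrays had median signals of 79.6 to 82.3. Of 16 markers of hippocampal pyramidal and granule neurons 13 were tested. Neurod2 fell (log2 fold change -0.79), Dsp and Snap25 rose (0.91 and 0.16), and the other 10 did not pass. Dsp reached the minimum signal on the stressed arrays only, so the filter fixed its direction. The summed signal of the neuron markers was 25823 to 25993 in stressed rats and 25076 to 25222 in controls. Markers of choroid plexus moved with the groups. Of 15 such markers 10 were tested and 8 rose and none fell, Ttr and Otx2 did not pass, and the other 5 had no tested probe set. Among those that rose, Cldn2, Cox8b and Aqp1 reached the minimum signal on the stressed arrays only, so the filter fixed their direction. The summed signal of the tested markers was 19322 to 20647 in stressed rats and 14764 to 16506 in controls. Of 9 tested markers of endothelial and mural cells 4 rose and none fell, and the direction of Pdgfrb, which rose, was likewise fixed by the filter. Over all tested genes, each at its brightest probe set, 11.1% rose and 10.2% fell. Among 11 tested astrocyte markers 2 rose and 1 fell, with a summed signal of 57426 to 58704 in stressed rats and 51673 to 53419 in controls. In striatum 2 of 5 fell and none rose, and in thalamus 1 of 7 fell and none rose. Oligodendrocyte and microglial markers, 10 and 8 tested, had 1 rise and 2 falls each. The single tested markers of cerebellum and blood did not pass. Some of the array's control probe sets for the ends of single transcripts also moved with the groups. The ratio of the 3′ to the middle probe set of Actb was 3.38 and 3.42 on the stressed arrays and 2.51 and 2.52 on the control arrays. The 3′ to 5′ ratio of Actb was 7.82 and 7.66 against 6.67 and 6.20, and that of Hexokinase, whose 5′ probe set was dim, 4.48 and 5.29 against 2.55 and 2.50. The 3′ to middle ratio of Hexokinase was 9.76 and 2.99 against 3.65 and 3.97, so the controls lay between the stressed arrays. For Gapdh the 3′ to middle ratio was 1.76 and 1.79 against 1.71 and 1.83, and the 3′ to 5′ ratio 2.12 and 2.16 against 2.14 and 2.25, both of which overlap. The part of these differences in the results below was not tested.

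Calcium handling transcripts that passed the test moved in both directions, mostly by less than 1.5-fold. Of the 68 probe sets, 48 probe sets of 29 genes reached a signal of 100 on 2 or more arrays and were tested by limma on log2 signals, with Benjamini-Hochberg adjustment over all 14791 tested probe sets. At adjusted p under 0.05, 9 of the 48 rose and 12 fell in stressed rats, and 27 did not pass. Over all tested probe sets 12% rose and 11.8% fell, 23.8% together, against 18.8%, 25.0% and 43.8% of the member probe sets. Of the 48, 3 reached the minimum signal in 1 group only, those of Atp2b2 and Canx in controls and that of Atp2b3 in stressed rats, so the filter fixed their direction. Among the other 45 probe sets 9 rose and 10 fell, beside 11.7% and 11.0% of 14307 over the array. The members' log2 fold changes had a median of -0.02, beside 0.02 for all tested probe sets. The called ones ranged in size from 0.15 to 1.15, and 15 of the 21 were under 1.5-fold. The stressed and control signals did not overlap in 39 of the 48 probe sets (81.2%), beside 64.4% of all tested ones. For a single probe set, the smallest two-sided p of an exact permutation test with these arrays is 0.333.

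These counts changed when an array was left out. Each removal leaves 1 array in a group, so a lost call does not show that a result rested on the removed array. With stressed replicate 1 left out 6 probe sets rose and 9 fell, and with stressed replicate 2 left out 5 rose and 12 fell. Leaving out control replicate 1 gave 5 rises and 8 falls, and leaving out control replicate 2 gave 5 and 6. The methods' t-test, which does not share the spread between probe sets, called 1 member probe set at adjusted p under 0.05, a probe set of Atp2b1 that rose (adjusted p = 0.0436 on log2 signals). Over all 14791 tested probe sets it called 18 at adjusted p under 0.05 on log2 signals. At unadjusted p under 0.05 the same test called 11 member probe sets higher and 13 lower. The share of all tested probe sets at that threshold was not computed, so these 2 counts are a description only.

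With each gene counted once, at its brightest tested probe set, 8 of 29 genes rose and 4 fell. The genes that rose were Ryr2, Ryr3, Atp2b3, Orai2, Calm2, Hpcal1, Hpcal4 and Plcb1, and those that fell were Atp2b1, Itpka, Vdac1 and Vdac3. Over all 9264 tested genes 11.1% rose and 10.2% fell at this probe set. Rises numbered 5, 4, 4 and 4 and falls 1, 3, 1 and 1 without stressed replicates 1 and 2 and control replicates 1 and 2. When all tested probe sets of a gene were averaged, 5 genes rose and 8 fell. The share of all tested genes under this averaging is not given, so the averaged counts are a description only.

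**Figure D1:**
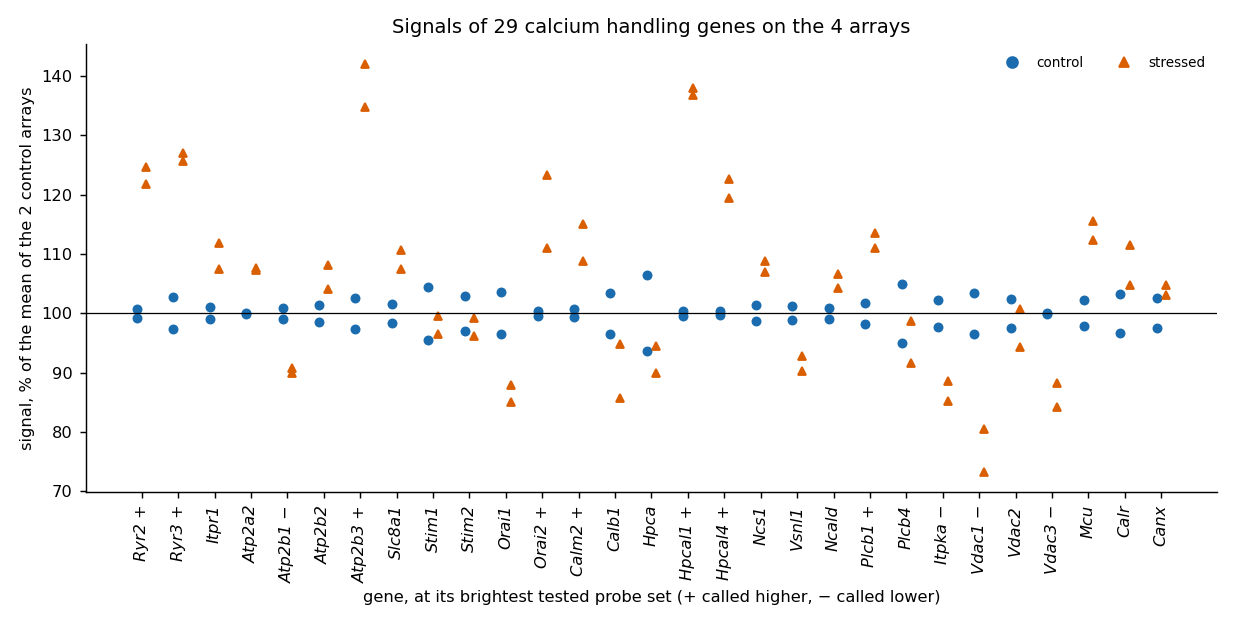
Signal of 29 calcium handling genes at their brightest tested probe set, as a percentage of the mean of the 2 control arrays. Circles are control arrays and triangles stressed arrays, 2 of each per gene, and + and − mark genes called higher or lower by limma at adjusted p under 0.05. Stressed signals were 135% and 142% of the control mean for Atp2b3, 137% and 138% for Hpcal1 and 73.3% and 80.5% for Vdac1.

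**Figure D2:**
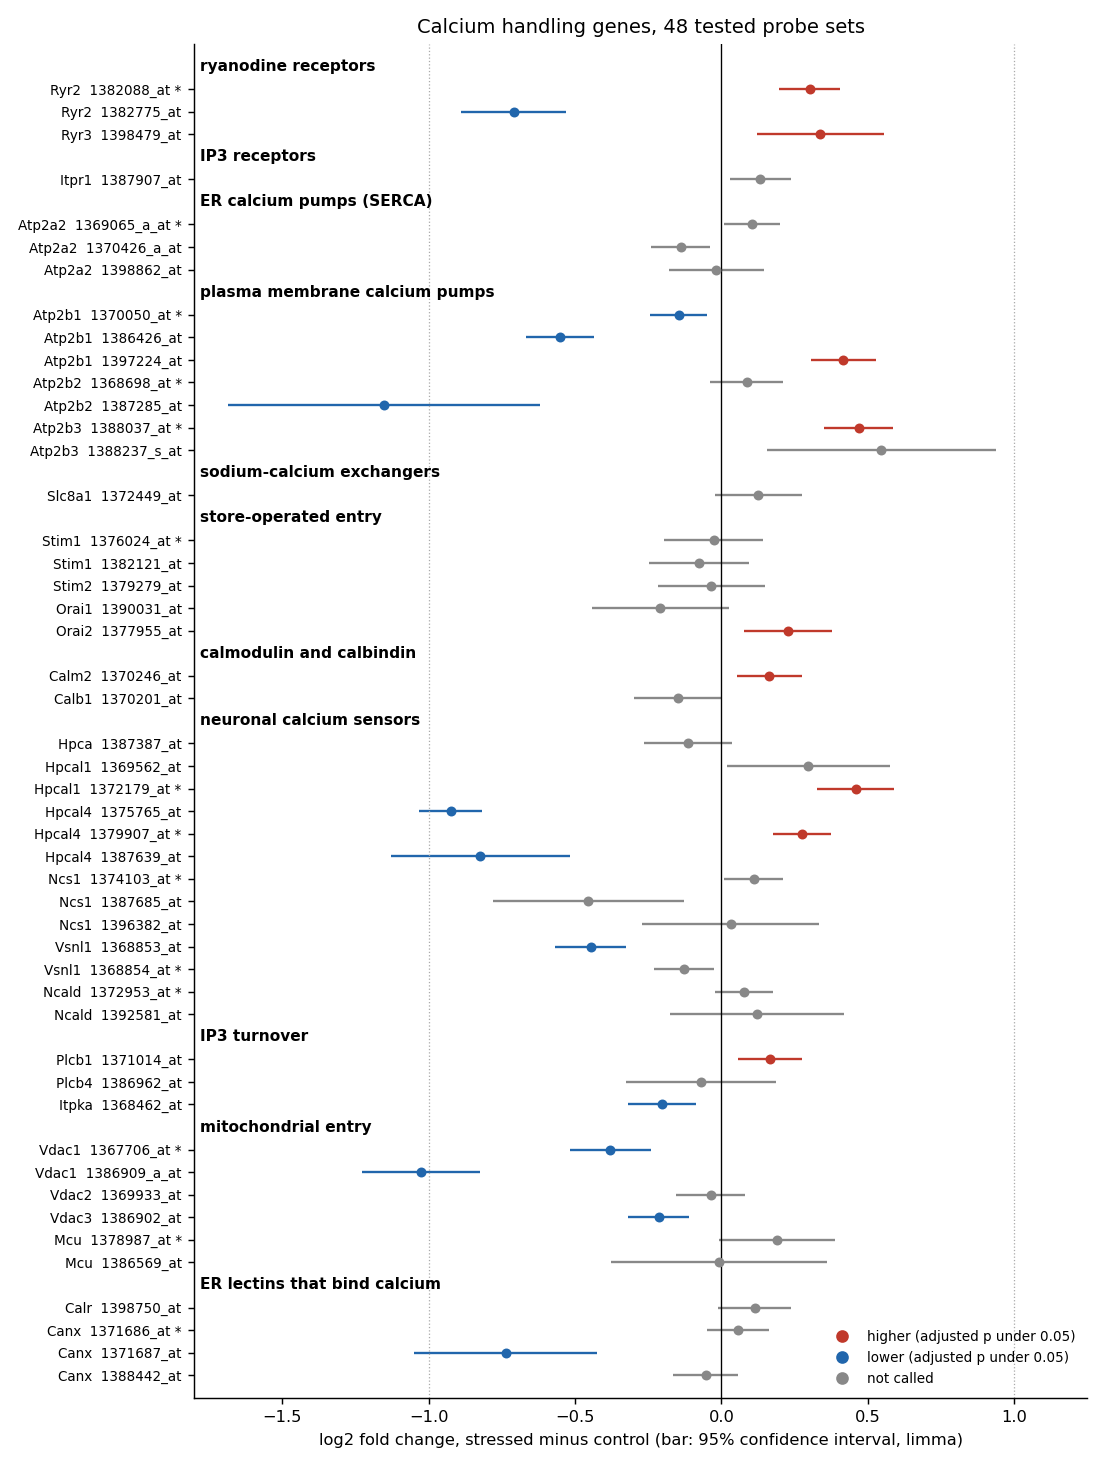
Log2 fold change (stressed minus control) of the 48 tested probe sets, grouped by the role of the gene, with 95% confidence intervals from limma. Red probe sets were called higher and blue ones lower, grey ones did not pass, and a star marks the brightest probe set of a gene with several. Dotted lines mark a 2-fold change, which 2 probe sets, of Atp2b2 and Vdac1, passed downward.

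The start regions of 4 genes are shown first, since each of these genes (a release channel, a pump, a sensor and a mitochondrial channel) had several tested probe sets that responded differently, as described below. The stretches are the 150 bases before the RefSeq transcript start on assembly GRCr8, written 5′ to 3′ along the gene, with GC boxes (GGGCGG on either strand) in capitals.
Ryr2, chr17:63081377-63081526, plus strand: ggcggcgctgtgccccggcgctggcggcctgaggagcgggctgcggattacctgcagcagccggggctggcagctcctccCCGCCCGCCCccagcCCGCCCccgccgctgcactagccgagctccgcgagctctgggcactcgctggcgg
Atp2b1, chr7:35622311-35622460, plus strand: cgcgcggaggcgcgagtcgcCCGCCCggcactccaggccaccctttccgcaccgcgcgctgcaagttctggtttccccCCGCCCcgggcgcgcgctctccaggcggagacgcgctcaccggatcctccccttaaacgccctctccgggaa
Hpcal4, chr5:140739758-140739907, plus strand: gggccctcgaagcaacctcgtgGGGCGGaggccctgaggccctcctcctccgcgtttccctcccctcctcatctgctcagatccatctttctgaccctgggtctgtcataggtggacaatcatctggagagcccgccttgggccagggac
Vdac1, chr10:37033059-37033208, plus strand: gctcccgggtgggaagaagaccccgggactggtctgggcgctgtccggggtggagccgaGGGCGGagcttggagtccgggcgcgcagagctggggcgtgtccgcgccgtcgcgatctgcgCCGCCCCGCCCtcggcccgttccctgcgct

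The windows held 64.0% to 79.3% G and C. Ryr2 and Vdac1 had 3 GC boxes each, Atp2b1 had 2 and Hpcal4 had 1, and boxes that overlap were counted separately. No window held a TATA motif (TATAAA) or the core of the cyclic AMP response element (TGACG) on either strand. RefSeq entries were found for 21 of the 29 tested genes, with 22 start regions in all. Of these 14 held a GC box, 4 the TGACG core and 1 the TATA motif, beside 26.0%, 13.4% and 8.00% of all 33469 start regions of the same length. The 2 start regions of Ryr3 count separately, and a match of letters is a description and not evidence of binding.

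Ryanodine receptors are the large release channels of the ER, and Ryr2 and Ryr3 are their brain forms. The brighter probe set of Ryr2 had signals of 1860.9 and 1903.0 in stressed rats and 1538.6 and 1515.4 in controls. The groups did not overlap, and it rose by a log2 fold change of 0.30 (standard error, SE, 0.05, limma adjusted p = 0.00352). The dimmer probe set of Ryr2 went the other way, with 299.4 and 320.1 in stressed rats and 502.3 and 510.5 in controls. Its log2 fold change was -0.71 (SE 0.08, limma adjusted p = 8.29e-04). A test of the difference between these 2 responses, from the ratio of the probe sets on each array, gave 1.01 on the log2 scale (SE 0.09, limma adjusted p = 1.93e-04). Both calls held without each array in turn, with adjusted p from 0.0111 to 0.0369 for the rise and from 0.00118 to 0.0173 for the fall.

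Ryr3 had 286.5 and 289.6 in stressed rats against 221.9 and 234.3 in controls, again without overlap. It rose by a log2 fold change of 0.34 (SE 0.09, limma adjusted p = 0.0359). This call was lost on removal of any of the 4 arrays (adjusted p 0.0945 to 0.140) and when dim probe sets were kept in the test (0.0546). Ryr1, known as the skeletal muscle form, had signals of 61.8 and 57.1 in stressed rats and 20.4 and 35.0 in controls and was not tested, all being under 100.

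The IP3 receptor Itpr1, the main neuronal form, had signals of 3130.8 and 3008.2 in stressed rats and 2770.9 and 2828.7 in controls. The groups did not overlap, yet its log2 fold change of 0.13 (95% confidence interval 0.03 to 0.24) did not pass the test (limma adjusted p = 0.0680). Itpr2 and Itpr3 stayed under the minimum signal, at 26.4 to 54.8 and 25.1 to 45.6 over the 4 arrays.

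Among genes that make and remove IP3, Plcb1 and Itpka were called in opposite directions. Plcb1 encodes a phospholipase C that forms IP3 downstream of receptors such as group I metabotropic glutamate receptors. Its signals were 1686.4 and 1724.5 in stressed rats and 1492.5 and 1546.8 in controls, a rise by a log2 fold change of 0.17 (SE 0.05, limma adjusted p = 0.0389). Itpka, a neuronal kinase that converts IP3, had 1407.6 and 1461.9 in stressed rats and 1613.9 and 1687.6 in controls, a log2 fold change of -0.20 (SE 0.05, limma adjusted p = 0.0236). Neither call held in each alternative. That of Plcb1 was lost without any of the 4 arrays (adjusted p 0.0873 to 0.168). That of Itpka was lost without stressed replicate 1 (0.102), control replicate 1 (0.0620) and control replicate 2 (0.136), and held without stressed replicate 2 (0.0445). Without an intensity trend their adjusted p was 0.139 and 0.104, and with dim probe sets kept in the test 0.0845 and 0.0555. Plcb4 had 214.7 and 199.5 against 228.4 and 206.9, which overlap, with a log2 fold change of -0.07. Both probe sets of Itpkb were at 34.4 or less on all arrays.

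The SERCA pump Atp2a2 refills the ER of neurons, and no probe set of it passed the test. Its brightest tested probe set had 5456.8 and 5434.0 in stressed rats and 5074.3 and 5061.4 in controls, a log2 fold change of 0.10 (limma adjusted p = 0.109). The second had 3069.0 and 3136.5 against 3368.8 and 3467.5, a log2 fold change of -0.14 (limma adjusted p = 0.0535). For both probe sets the groups did not overlap, in opposite directions, and the difference between their responses was 0.24 on the log2 scale (limma adjusted p = 0.0112). Affymetrix marks both by the suffix of probe sets that can detect several transcripts of a gene. The third tested probe set gave 799.5 and 709.4 against 762.2 and 762.5, so that the controls lay between the stressed arrays, with a log2 fold change of -0.02. Atp2a3 was under 100 on all arrays, its brighter probe set at 91.9 and 78.2 in stressed rats and 65.6 and 62.7 in controls.

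Among the plasma membrane pumps calls went in both directions. Of 7 tested probe sets 2 rose and 3 fell, while about 12% rose and about 12% fell over all tested probe sets. Atp2b3, a form enriched in neurons, had 2548.6 and 2420.3 in stressed rats and 1748.2 and 1842.4 in controls. It rose by a log2 fold change of 0.47 (SE 0.05, limma adjusted p = 8.29e-04), a call that held without each array (adjusted p 0.00143 to 0.0156). Its second tested probe set had 121.9 and 103.9 against 71.9 and 82.6, a log2 fold change of 0.55 that did not pass (limma adjusted p = 0.0518). That probe set entered the test only through the stressed arrays, since both controls were under 100.

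Atp2b1, the widely expressed pump, was called at each of its 3 tested probe sets, and not in the same direction. The brightest had 5598.9 and 5550.1 in stressed rats and 6224.6 and 6113.9 in controls, a log2 fold change of -0.15 (limma adjusted p = 0.0415). The next had 1365.5 and 1296.7 against 1914.2 and 1985.6, a log2 fold change of -0.55 (SE 0.05, limma adjusted p = 3.58e-04). The third had 1308.9 and 1304.2 against 979.6 and 979.0, a rise by 0.42 on the log2 scale (SE 0.05, limma adjusted p = 0.00113). The brightest differed in response from the second by 0.40 (limma adjusted p = 0.00204) and from the third by -0.56 (limma adjusted p = 3.81e-04). The call of the brightest was lost without any of the 4 arrays (adjusted p 0.126 to 0.182), with dim probe sets kept in the test (0.0873) and without an intensity trend (0.164), while the other calls held in these settings.

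Atp2b2 had a bright probe set that did not pass and a dim one that fell. The former had 986.7 and 949.5 in stressed rats and 924.8 and 898.7 in controls, a log2 fold change of 0.09 (limma adjusted p = 0.278). The latter had 58.3 and 92.4 against 179.6 and 148.5, a log2 fold change of -1.15 (SE 0.23, limma adjusted p = 0.0107). It entered the test only through the control arrays, so the filter fixed its direction and the value is a description, and its call was lost without control replicate 1 (adjusted p = 0.0873) or control replicate 2 (0.0544). The difference between the responses was 1.24 on the log2 scale, given with no test for the same reason. Atp2b4 was at 32.4 to 45.0 and was not tested.

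Sodium-calcium exchangers use the sodium gradient to export calcium. Slc8a1 had 583.3 and 567.0 in stressed rats and 518.6 and 535.8 in controls at its tested probe set. The groups did not overlap, and the log2 fold change of 0.13 did not pass (95% confidence interval -0.02 to 0.27, limma adjusted p = 0.192). Slc8a2 lay between 32.8 and 70.5 and Slc8a3 between 38.1 and 52.4, all under the minimum.

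Among the genes of store-operated entry, Orai2 was called and the sensors were not. Orai2, which encodes a plasma membrane channel subunit, had 878.4 and 976.6 in stressed rats and 794.9 and 788.2 in controls. It rose by a log2 fold change of 0.23 (SE 0.06, limma adjusted p = 0.0404). The higher of the 2 stressed arrays mattered here, since without stressed replicate 2 the log2 fold change was 0.15 (adjusted p = 0.188). The call was also lost without control replicate 1 (0.132), without control replicate 2 (0.159), with dim probe sets kept in the test (0.0844) and without an intensity trend (0.116), and it held without stressed replicate 1 (0.0221). Orai1 had 210.4 and 217.3 against 256.0 and 238.5, with a log2 fold change of -0.21 (95% confidence interval -0.44 to 0.02) that did not pass. The ER calcium sensors Stim1 and Stim2 had log2 fold changes of -0.03 and -0.03 at their brightest probe sets, with overlapping groups. Their 95% confidence intervals were -0.19 to 0.14 for Stim1 and -0.22 to 0.15 for Stim2.

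Calmodulin is the common calcium sensor of the cell and is encoded by several genes, of which Calm2 was measured. Its signals were 10418.3 and 9850.8 in stressed rats and 8987.6 and 9111.9 in controls, a rise by a log2 fold change of 0.16 (SE 0.05, limma adjusted p = 0.0440). This call was lost without any of the 4 arrays (adjusted p 0.0834 to 0.268), after median centring (0.0548), with dim probe sets kept in the test (0.0889) and without an intensity trend (0.156). Calb1 encodes calbindin, a calcium buffer of dentate granule cells, CA1 pyramidal cells and some interneurons. It had 1300.2 and 1175.2 against 1322.7 and 1417.5, a log2 fold change of -0.15 (95% confidence interval -0.30 to 0.00) that did not pass (limma adjusted p = 0.137).

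The neuronal calcium sensors are small EF-hand proteins of the hippocalcin, visinin-like and NCS-1 type, and many carry a fatty acid that lets them move to membranes when calcium binds. All 6 genes were tested, with 13 probe sets, of which 2 rose and 3 fell. Over all tested probe sets about 12% rose and about 12% fell. Hpcal1, a hippocalcin-like sensor, had 794.8 and 788.0 in stressed rats and 578.6 and 573.5 in controls at its brighter probe set. It rose by a log2 fold change of 0.46 (SE 0.06, limma adjusted p = 0.00154), which held without each array (adjusted p 0.00538 to 0.0210). Its dimmer probe set had 170.5 and 164.9 against 134.5 and 138.5, a log2 fold change of 0.30 in the same direction that did not pass (limma adjusted p = 0.112). The responses of these 2 probe sets differed by 0.16 (limma adjusted p = 0.409).

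Hpcal4, another hippocalcin-like sensor, held the smallest p of all member probe sets and a called change in each direction. Its brightest probe set had 5010.5 and 4877.3 in stressed rats and 4070.4 and 4097.8 in controls, a rise by a log2 fold change of 0.28 (SE 0.04, limma adjusted p = 0.00393). The next had 957.1 and 940.4 against 1807.5 and 1794.5, a log2 fold change of -0.92 (SE 0.05, limma adjusted p = 3.05e-05). The dimmest had 104.0 and 99.3 against 171.7 and 188.2, a log2 fold change of -0.82 (SE 0.13, limma adjusted p = 0.00447). The brightest differed in response from these by 1.20 (limma adjusted p = 1.57e-05) and 1.10 (limma adjusted p = 1.76e-04) on the log2 scale. The rise and the fall of the second held in each removal of an array, with adjusted p of at most 0.0379 and 0.00289, and the call of the dimmest was lost without control replicate 2 (0.0508).

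Vsnl1, which encodes visinin-like protein 1, was lower in stressed rats at both probe sets. The dimmer had 761.7 and 783.4 in stressed rats and 1060.7 and 1045.0 in controls, a log2 fold change of -0.45 (SE 0.05, limma adjusted p = 0.00122), which held without each array (0.00285 to 0.0191). The brighter had 5568.8 and 5413.4 against 6071.2 and 5932.4, a log2 fold change of -0.13 that did not pass (limma adjusted p = 0.0692). The responses differed by 0.32 (limma adjusted p = 0.00936).

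Hpca, Ncs1 and Ncald had no probe set past the test. Hippocalcin, encoded by Hpca, is abundant in hippocampal pyramidal cells, and its signals of 6114.6 and 5823.3 overlapped with 6056.1 and 6886.6 in controls. The log2 fold change was -0.11 (95% confidence interval -0.27 to 0.04). Ncs1 had 3278.0 and 3337.2 against 3023.8 and 3105.0 at its brightest probe set (log2 fold change 0.11, limma adjusted p = 0.103). At its next probe set it had 214.2 and 270.9 against 300.2 and 363.2 (log2 fold change -0.45, limma adjusted p = 0.0520), and these responses differed by 0.57 (limma adjusted p = 0.0148). Ncald had log2 fold changes of 0.08 and 0.12 at its 2 probe sets.

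The outer membrane channels of mitochondria were lower for Vdac1 and Vdac3. The brighter probe set of Vdac1 had 2190.2 and 2406.2 in stressed rats and 2886.7 and 3090.1 in controls, a log2 fold change of -0.38 (SE 0.06, limma adjusted p = 0.00428). The dimmer had 201.3 and 210.5 against 417.9 and 420.7, a log2 fold change of -1.03 (SE 0.09, limma adjusted p = 2.54e-04). Its name carries the suffix described above for Atp2a2. Both probe sets fell without overlap and in each removal of an array (adjusted p 0.00318 to 0.0474 and 4.29e-04 to 0.00987), but by different amounts, with a difference of 0.65 (limma adjusted p = 0.00161). Vdac1 was the only member with 2 tested probe sets of which all were called in the same direction.

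Vdac3 had 6003.5 and 6289.9 in stressed rats and 7133.4 and 7125.6 in controls, a log2 fold change of -0.21 (SE 0.05, limma adjusted p = 0.0132). Its call was lost without stressed replicate 1 (adjusted p = 0.0975), control replicate 1 (0.0752) or control replicate 2 (0.0809) and without an intensity trend (0.0870), and held without stressed replicate 2 (0.0356). Vdac2 had 4413.4 and 4132.3 against 4276.9 and 4489.5, which overlap (log2 fold change -0.04). The uniporter Mcu had 318.7 and 327.5 against 289.7 and 277.3 at its brighter probe set, a log2 fold change of 0.19 (95% confidence interval -0.01 to 0.39) that did not pass, and one of -0.01 at the other.

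The calcium-binding ER chaperones were called at 1 of 4 probe sets, beside 23.8% of all tested ones. Calreticulin, encoded by Calr, had 2031.0 and 2161.0 in stressed rats and 2000.9 and 1875.0 in controls (log2 fold change 0.11, limma adjusted p = 0.170). Calnexin, encoded by Canx, had 4374.3 and 4441.7 against 4133.8 and 4347.4 at its brightest probe set (log2 fold change 0.06) and 1209.1 and 1222.4 against 1275.7 and 1247.9 at the second (log2 fold change -0.05). Only its dimmest probe set fell, with 95.1 and 96.0 against 153.2 and 165.4, a log2 fold change of -0.74 (SE 0.13, limma adjusted p = 0.00764). That probe set entered the test only through the control arrays, so that the filter fixed its direction, and its call was lost without control replicate 2 (adjusted p = 0.0690). The difference of 0.79 from the response of the brightest is likewise given with no test.

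**Figure D3:**
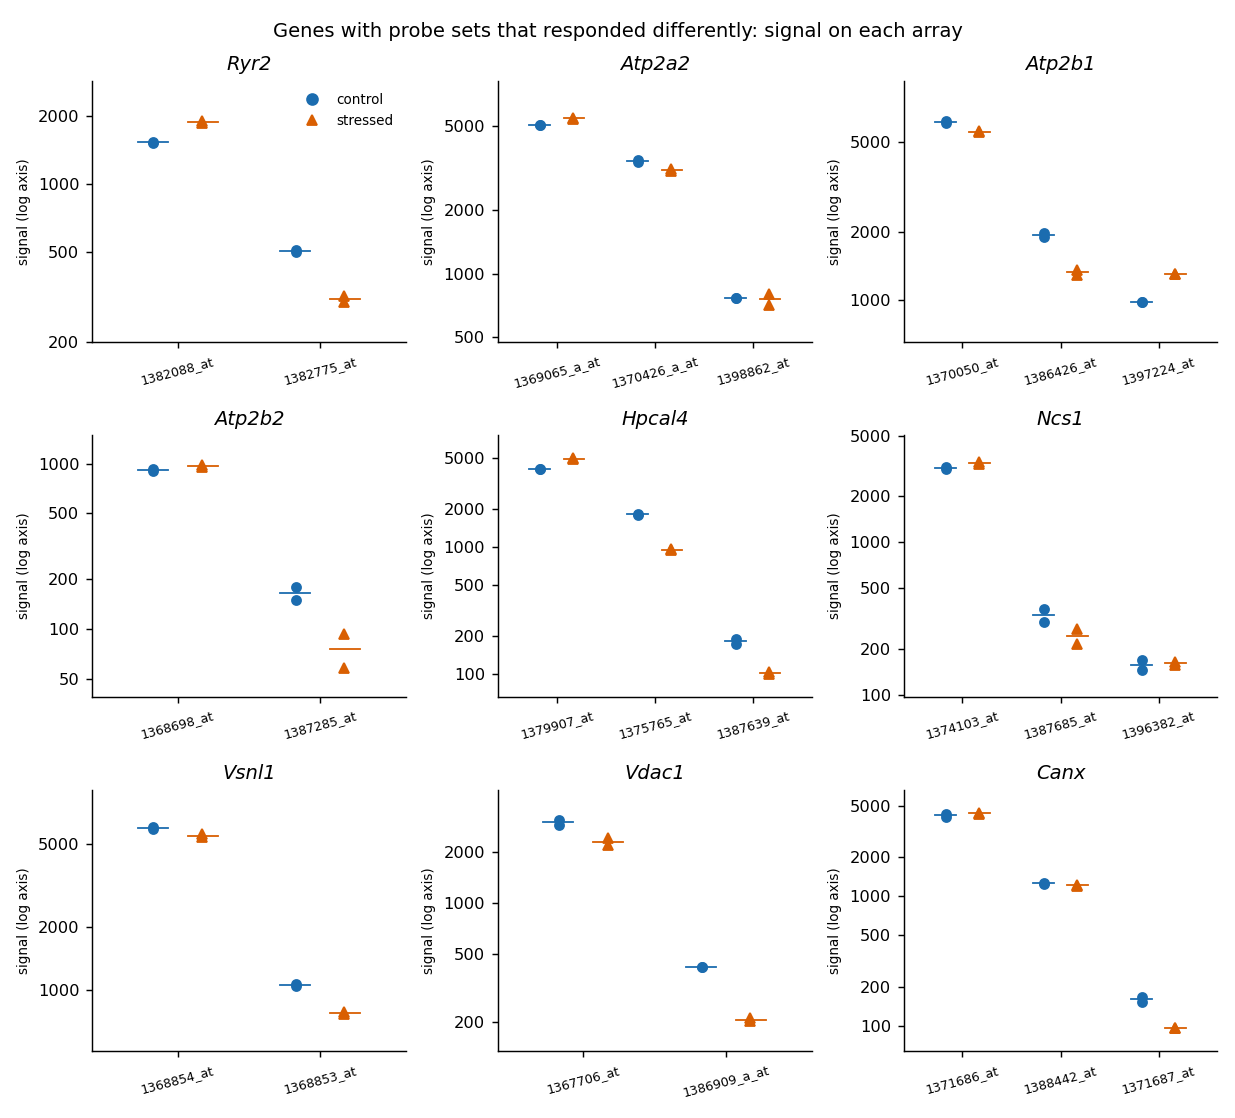
Signal on each array for the 9 genes with probe sets that responded differently, on log axes that differ between panels. Circles are control arrays and triangles stressed arrays, 2 of each per probe set, and short lines are group means. In Ryr2 and Hpcal4 the brightest probe set rose while the dimmer ones fell.

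Different responses of probe sets of the same gene were thus a feature of many members. Of 14 members with several tested probe sets, 9 had a pair that differed in response at limma adjusted p under 0.05, with the brightest probe set paired with each other one, beside 30.0% of 1871 such genes over the whole array. The pairs that differed were 11 of 19 (57.9%), beside 27.0% of 2363 such pairs over the whole array. In 10 of the 19 pairs the brightest probe set was called as moved up relative to the other and in 1 down, beside 17.8% and 9.14% of all pairs. Among called pairs alone it moved up in 10 of the 11, beside 66.1% of the 637 of the whole array. Of the 19 member probe sets that were not the brightest 8 fell and 1 rose. These counts include the dim probe sets of Atp2b2 and Canx, whose direction the filter fixed. Among pairs with the minimum signal reached in both groups, 9 of 16 (56.2%) in 7 of 12 genes differed, beside 24.6% of 2190 pairs and 27.3% of 1754 genes of the array. In 8 of the 16 pairs the brightest moved up and in 1 down, beside 15.6% and 8.95% of the array's pairs. Of the 16 probe sets other than the brightest 6 fell and 1 rose. Ryr2, Atp2b1 and Hpcal4 had a called rise and a called fall, as had 5.13% of 1871 genes with several tested probe sets. The ratios of Actb and the 3′ to 5′ ratio of Hexokinase given above, higher in stressed rats, moved with these differences. The 3′ to middle ratio of Hexokinase and both ratios of Gapdh overlapped between the groups. The part of such shifts in the differences was not tested. Genes with such a pair numbered 7 without control replicate 2 and 9 in the other removals, and the methods' t-test on log2 signals called none.

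**Figure D4:**
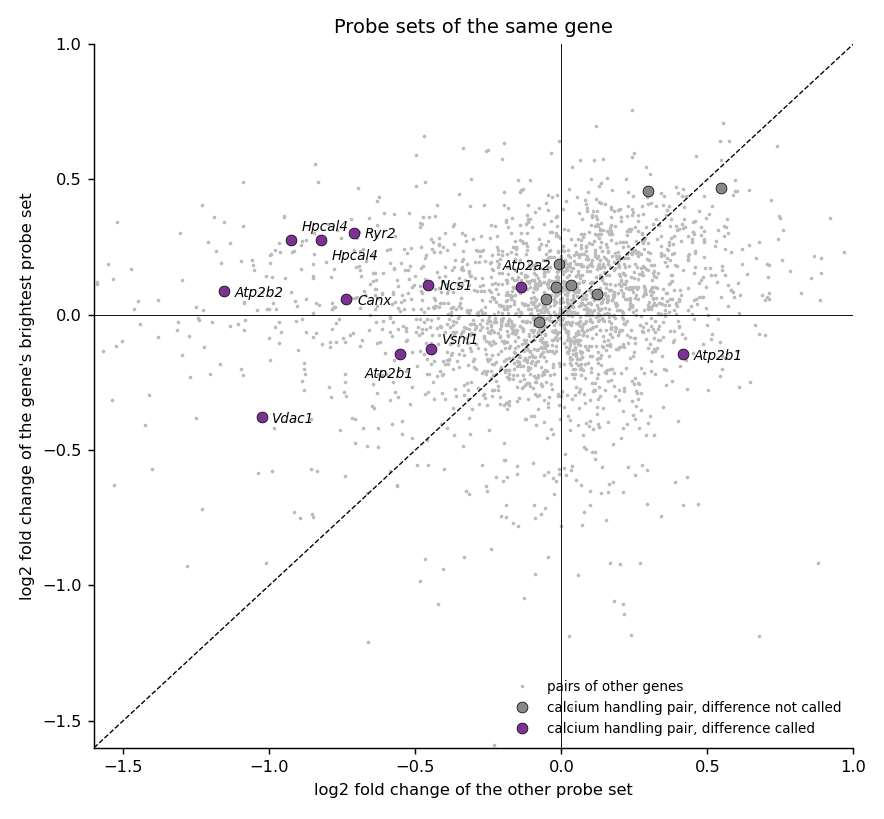
Log2 fold change of the brightest probe set of a gene (vertical axis) against that of each other tested probe set of it (horizontal axis), for other genes as small grey points and calcium handling genes as large points, purple where the difference was called and dark grey where not. The dashed line marks equal changes, named points are the 11 pairs whose difference passed adjusted p under 0.05 from limma, and 26 of 2363 pairs lie outside the axes. All named points other than the right-hand one of Atp2b1 lie above the line, those of Atp2b2 and Canx with a direction fixed by the filter.

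At the study's thresholds of at least 2-fold and unadjusted p under 0.05, 2 member probe sets were lower and none was higher. These were the dim probe sets of Atp2b2 and Vdac1, 4.17% of the 48, beside 1.38% lower and 0.216% higher over all tested probe sets. The direction of that of Atp2b2 was fixed by the filter, and among probe sets with the minimum signal reached in both groups that of Vdac1 alone remained, 1 of 45 (2.22%), beside 0.888% lower and 0.0629% higher of 14307. None passed without stressed replicate 1, and with an offset of 50 added to the signals there was also none. The methods' t-test left that of Vdac1 alone, on log2 or linear signals. When dim probe sets were not filtered 4 passed, with a lower one of Atp2a3 and a higher one of Ryr1, all 8 signals of which were under 100.

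**Figure D5:**
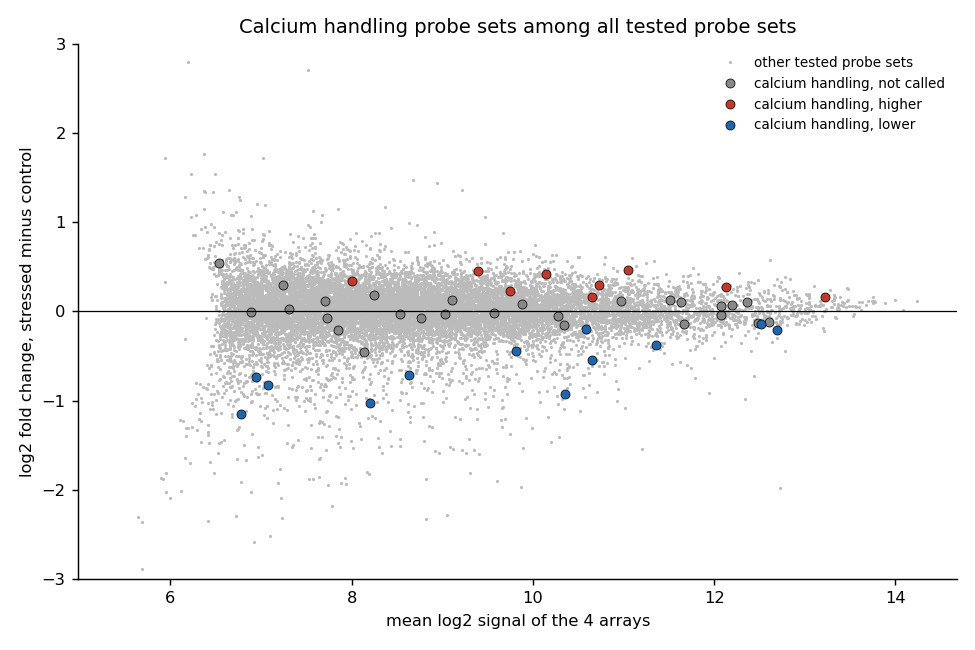
Log2 fold change against mean log2 signal for all 14791 tested probe sets (grey) with the 48 of calcium handling genes in colour, blue for called lower, red for called higher and dark grey for not called. The calls above 2-fold in size among the members, 2 of 48, lie at low signals, and 1 probe set of the array lies outside the range shown.

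The other genes of calcium handling were described from a list of 117 further genes, of which 85 were tested at their brightest probe set. Of these 7 rose and 8 fell, 17.6% together, beside 21.3% of all genes at this probe set, and their log2 fold changes had a median of -0.00 and ranged from -0.53 to 0.34. Of 21 calmodulin-related, buffer and sensor genes 6 fell (28.6%) and none rose, beside 10.2% lower and 11.1% higher over all tested genes. Efhd2, an EF-hand protein, had 929.2 and 951.2 in stressed rats and 1271.2 and 1278.0 in controls (log2 fold change -0.44, limma adjusted p = 9.90e-04). Necab2, a neuronal EF-hand protein, had 1517.8 and 1507.7 against 1943.1 and 2166.6 (log2 fold change -0.44, limma adjusted p = 0.00221). Kcnip4, a sensor that binds potassium channels, fell by 0.29 and Pcp4, a calmodulin-binding protein, fell by 0.27 on the log2 scale.

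In the ER folding list 2 of 11 genes fell (18.2%) and none rose, beside 10.2% lower and 11.1% higher over all tested genes. Pdia3, a disulfide isomerase that works with calreticulin and calnexin, had 1628.6 and 1573.1 in stressed rats and 2338.0 and 2295.2 in controls (log2 fold change -0.53, limma adjusted p = 2.75e-04). Hsp90b1, the ER chaperone GRP94, fell by 0.28. Of 19 genes of phosphoinositide and inositol phosphate turnover 3 rose (15.8%) and none fell, and of 9 mitochondrial genes 2 rose (22.2%) and none fell. In 3 plasma membrane exchangers and in 22 further genes of ER release and refill 1 each rose (33.3% and 4.55%) and none fell. These counts stand beside the same 11.1% of all tested genes that rose. Letm1, a mitochondrial inner membrane protein, rose by 0.34, the phosphatase gene Inpp4a by 0.28, the exchanger Slc24a2 by 0.28, the lipid kinase gene Pip5k1c by 0.27, the inactive phospholipase Plcl1 by 0.22 and Ahcyl1, a regulator of IP3 receptors, by 0.21 on the log2 scale. Rises fell in number to 2 without an intensity trend and to 4 without either control replicate, and falls to 5 without an intensity trend and to 5 without control replicate 2.

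The 8 members with no tested probe set were Ryr1, Itpr2, Itpr3, Atp2a3, Atp2b4, Slc8a2, Slc8a3 and Itpkb. Their 11 probe sets had signals of 0.8 to 91.9, and the other 9 untested probe sets belonged to genes with a brighter one. No statement on stress can be made for these genes at this signal. Of the 29 tested genes, 14 had no called probe set.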

How the data were processed

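Total hippocampal RNA was hybridised to GeneChip Rat Genome 230 2.0 arrays, and the authors computed a signal intensity per probe set with GCOS. The deposited intensity values were linear, with a mean of 300.1 on each array after trimming 2% at each end, which leaves differences in the shape of the distribution between arrays. Zeros were set to 0.1 and log2 taken. The 57 control probe sets were left out. Of 31042 others, 14791 that reached a signal of 100 on 2 or more arrays were fitted with limma 3.58.1 (R 4.3.3, intensity trend, 7.73 degrees of freedom), with no replicate block. Pairs of probe sets of the same gene were fitted alike on their log2 ratios. Gene symbols came from the platform annotation, and all 68 member probe sets kept their symbol in RefSeq (GRCr8). The number of arrays limits the precision, and detection calls were not used here.

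The members, gene lists and tests were chosen with earlier results of these data known. All members were described, and of the other calcium handling genes the 6 with the smallest p in each direction. Groups came from the sample titles. On simulated data of the 14791 probe sets, 85.5% of 1.5-fold and 98.8% of 2-fold changes were called, and 4.63% of calls were false. The simulation changed 200 probe sets in each of 10 runs. Its noise was normal, with a spread shared by probe sets of like signal. It held no shift of cell types or transcript ends between groups, so 4.63% is not the false share of the calls reported here. Alternatives covered normalization, filters, offset, floor, trend, the methods' t-test, block and removed arrays. Python 3.11.15, pandas 2.3.3, numpy 2.4.6, scipy 1.17.1 and matplotlib 3.10.9 made tables and plots.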

Additional observations from a re-analysis of the deposited data

How the results depend on the processing

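All 21 called member probe sets kept their direction in the alternatives run, and 11 kept their call in all 13 limma settings. Quantile normalization gave 12 rises among the other calcium handling genes in place of 7. With no filter on dim probe sets 5 member probe sets rose in place of 9, and at the brightest probe set 4 genes rose and 2 fell in place of 8 and 4, while 4 probe sets in place of 2 passed the 2-fold threshold and 6 genes in place of 9 had probe sets that differed in response. A minimum signal of 200 left 1 at 2-fold and gave 11 rises among the other genes. An offset of 50 left 0 at 2-fold. Counting only probe sets that reached the minimum signal in both groups, chosen after seeing the data, left 9 rises, 10 falls, 1 at 2-fold and 7 genes with probe sets that differed. Without an intensity trend 5 genes rose and 1 fell at the brightest probe set, and 2 of the other genes rose and 5 fell. With all probe sets of a gene averaged 5 genes rose and 8 fell, given with no share over the array.

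The methods' t-test on log2 signals and on linear signals called 1 member probe set higher and 0 lower, 0 genes higher or lower at the brightest probe set, 0 of the other genes in either direction and 1 at 2-fold, and on log2 signals 0 genes with probe sets that differed. Over all tested probe sets it called 18 on log2 and 16 on linear signals at adjusted p under 0.05. Its unadjusted p was under 0.05 for 11 higher and 13 lower member probe sets, given with no share over the array.

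Deviations of arrays with the same replicate number correlated at -0.11 over 14791 probe sets. With 2 arrays in each group this single value cannot show whether the numbers pair the arrays. With the replicate number as a block 5 member probe sets rose and 11 fell, and at the brightest probe set 4 genes rose and 2 fell. The crossed replicate block, chosen after seeing the data, gave 12 and 16 member probe sets, 10 and 7 genes, and 11 rises among the other genes.

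With each array left out in turn, 5 to 6 member probe sets rose and 6 to 12 fell, 4 to 5 genes rose and 1 to 3 fell at the brightest probe set, 0 to 2 probe sets passed 2-fold, 4 to 6 of the other genes rose and 5 to 8 fell, and 7 to 9 genes had probe sets that differed.

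Some log2 fold changes that had not passed the test changed sign when an array was left out. Over these removals the dimmest tested probe set of Atp2a2 ran from -0.10 to 0.069, the brightest of Stim1 from -0.092 to 0.038, Stim2 from -0.077 to 0.0087, the dimmest tested of Ncs1 from -0.077 to 0.14, the dimmer of Ncald from -0.031 to 0.27, Plcb4 from -0.14 to 0.00042, Vdac2 from -0.085 to 0.010 and the dimmer tested of Mcu from -0.15 to 0.14. The cause of these changes was not tested. Dim signals limit the description of the 8 genes with no tested probe set.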
